A study of Mus musculus with 7 samples.

Results

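Bulk RNA-seq was read for the sorted tumor cells of the NPCTKO model of glioblastoma (GBM), which make up 4 of the 7 samples of the series. They were chosen by their label alone, as NPCTKO samples 1 to 4, and are described on their own, gene by gene, for what all 4 samples share. In this model, plasmids for Cas9, luciferase and single-guide RNAs against 3 tumor suppressor genes, *Trp53* and *Nf1* among them, were put by in utero electroporation into the neural precursors of the embryonic neocortex. The piggyBac transposase put them into the genome together with a cassette that marks all progeny with EGFP or DsRed. The samples share this design and the C57BL/6 strain, and their labels give an age of 3 months. The paper kept *Tbx18* H2B-GFP mice, hosts of DsRed-labeled tumors, on a mixed C57BL/6 and CD-1 background. It does not say which host line gave each sorted sample. RNA was isolated from cells that FACS collected as EGFP+ or DsRed+ after papain had dissociated the tumors. The labels do not tell which reporter a sample carried or whether every sample is a separate mouse, so the spread between samples may be partly technical. There is 1 group, so no test between groups was made.

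GBM cells of this kind carry features of oligodendrocyte precursor cells (OPC), the dividing glial cells that normally give rise to myelinating oligodendrocytes (OLG). OPC express the transcription factors *Olig1*, *Olig2* and *Sox10*, and the growth factor receptor encoded by *Pdgfra* drives their division. Loss of *Nf1*, which switches Ras off, raises Ras-ERK signaling, and loss of *Trp53* removes a brake on the cell cycle and on survival after DNA damage.

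The total counts lay between 15002873 and 19247326 per sample, and 3 counts, taken as the floor, correspond to 0.156 to 0.209 CPM (counts scaled to library size, here normalized by TMM within the 4 samples), which covers counting error only. Of the edited genes, *Trp53* had 176, 162, 111 and 89.4 CPM in samples 1 to 4 (on chromosome 11 of mm10 from 69580359 to 69591873) and *Nf1* had 36.6, 41.2, 229 and 154 CPM (on chromosome 11 of mm10 from 79339693 to 79581612). Gene-wide counts are blind to the edits. Of 11072 genes that other genes cover entirely, 11067 had no counts, so such genes are given in FPKM, from the second deposited table. The samples fell into the pairs 1 with 2 and 3 with 4. Over 10383 genes with a mean of at least 10 CPM, log2(CPM + 1) had a Pearson correlation of 0.958 between samples 1 and 2 and 0.871 between samples 3 and 4, and 0.509 to 0.666 across the pairs. These are correlations across genes, which are not independent replicates. No sample was a copy of another, since the counts of each pair of samples differed by 86.9 (samples 1 and 2) to 773 (samples 1 and 3) times the sampling noise, as a mean chi-square per gene. GC-rich and short transcripts were read more in samples 1 and 2, and GC-poor and long ones more in the others. Over the tested genes, Spearman's rho between the GC content of a transcript and the gene's deviation from its mean was 0.685, 0.555, -0.582 and -0.608 for samples 1 to 4. Genes of macrophages, microglia and lymphocytes, immunoglobulin genes included, held 8.90, 9.49, 0.553 and 2.62% of all counts, from sample 1 to sample 4, although the cells were sorted. In bulk samples, fewer cells of a type and less RNA per cell cannot be told apart.

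RNA of the genes the study names for its tumor cells was read in all 4 samples. *Olig2*, on chromosome 16 of mm10 from 91225550 to 91228677, was at 388, 548, 268 and 281 CPM. *Sox2*, a transcription factor of neural stem cells that lies wholly inside another gene and holds no counts in this table, was at 73.8, 71, 134 and 117 FPKM. *Nes*, a filament protein of neural precursors, was at 88.3, 47.2, 215 and 249 CPM, and *Pdpn*, a surface glycoprotein, at 10.04, 8.07, 19.8 and 8.41 CPM. RNA of genes that mark other cells was read beside these markers. *Pecam1* and *Cldn5*, genes of endothelial cells (EC), were at 27.7, 31.2, 3.90 and 24.9 CPM and 34.4, 81.4, 3.74 and 32.8 CPM. The T cell genes *Cd2*, *Cd3d*, *Cd3e* and *Cd3g* were between 0.623 and 5.98 CPM, and the mural genes *Pdgfrb*, *Kcnj8* and *Tbx18* between 0 and 5.55 CPM, in every sample. *Acta2*, of smooth muscle and mural cells, was at 17, 17.9, 24.6 and 10.1 CPM and *Mcam*, another gene of mural and EC, at 171, 90.9, 189 and 58.3 CPM. Whether the RNA of these EC, T cell and mural genes came from other cells or from tumor cells was not tested. The paper reports that GBM cells could also express mural cell markers.

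Of 23156 genes with a count, 211 were among the 500 genes with the highest CPM in each of the 4 samples, which is 0.911% of them and 2.03% of the 10383 genes with a mean of at least 10 CPM. The 500 leading genes of the 4 samples together named 842 genes, of which 115 were in 3 lists, 295 in 2 and 221 in 1. Samples 1 and 2 shared 438 of their 500 genes and samples 3 and 4 shared 368, against 245 to 310 across the pairs. The 211 genes took 26.8, 27.3, 14.9 and 17.4% of all counts, sample by sample, a mean of 21.6% ± 6.36 (SD, n = 4). Without 4 genes of the immune lists they took 23.2, 22.3, 14.6 and 15.8%. At the edge of the list, *Rpl18* and *Sptan1* had a lowest rank of 500 among the 4 samples, while *Cdc42* fell outside with a rank of 502 and *Eif4h* with 504. CPM is not per length, so a long transcript ranks higher than a short one of the same abundance. Ranked by FPKM, which is per length, 309 genes were shared, and 123 genes were in both sets, which is 58.3% of the 211 and 39.8% of the 309. The FPKM table names 176 of the 211 genes in rows of their own.

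The genes at the head of the shared set make and fold proteins, build the actin cytoskeleton and present antigen. *Eef1a1*, on chromosome 9 of mm10 from 78478449 to 78489151, carries aminoacyl-tRNA to the ribosome and was at 7976, 9974, 4261 and 6157 CPM in samples 1 to 4. *Eef2*, which moves the ribosome along the mRNA, was at 7003, 6359, 1827 and 2517 CPM. Both were higher in samples 1 and 2 than in samples 3 and 4, as were 40.5% of the 10383 genes with a mean of at least 10 CPM. *Hsp90ab1*, a cytosolic chaperone, was at 2487, 3142, 1953 and 2169 CPM, *Calr*, a chaperone of the endoplasmic reticulum, at 1762, 2078, 1288 and 1777 CPM and *Hspa5*, another one, at 1034, 1161, 1013 and 1478 CPM. The highest sample was within 1.61, 1.61 and 1.46 times the lowest for these chaperones, as a ratio of CPM + 1. *Ckb*, on chromosome 12 of mm10 from 111669355 to 111672338, encodes the brain form of creatine kinase, which buffers ATP. It was nearly level at 1909.8, 1983, 1678 and 1693 CPM, with a highest over lowest of 1.18. This ratio became 2.04 once the trends with GC content and length were removed. *Scd2*, a fatty acid desaturase, was at 964, 1297, 1149.8 and 982 CPM, without a split between the pairs, whereas *Ckb* was slightly higher in samples 1 and 2. *Actb* at 5102, 4627, 1600.0 and 1329 CPM and *Actg1* at 3024, 2412, 1287 and 1146 CPM encode the cytoplasmic actins. The actins were higher in samples 1 and 2. Of the others among the 20 genes whose lowest CPM was highest, *mt-Co1* (a mitochondrially encoded oxidase subunit), *Ubb* (ubiquitin), *Rplp0* and *Rpl4* (ribosomal proteins), *Tpt1* (a partner of elongation factors), *Pkm* and *Gapdh* (glycolytic enzymes) and *C4b* (complement) had, in this order, a highest over lowest of 2.07, 2.33, 3.11, 1.84, 2.01, 2.72, 3.00 and 3.51. *Psap*, a lysosomal protein, and *Cd74*, the invariant chain of MHC class II that macrophages express, spread most, at 12646, 13208, 1103 and 3237 CPM and 17079, 26054, 954 and 4377 CPM.

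**Figure D1:**
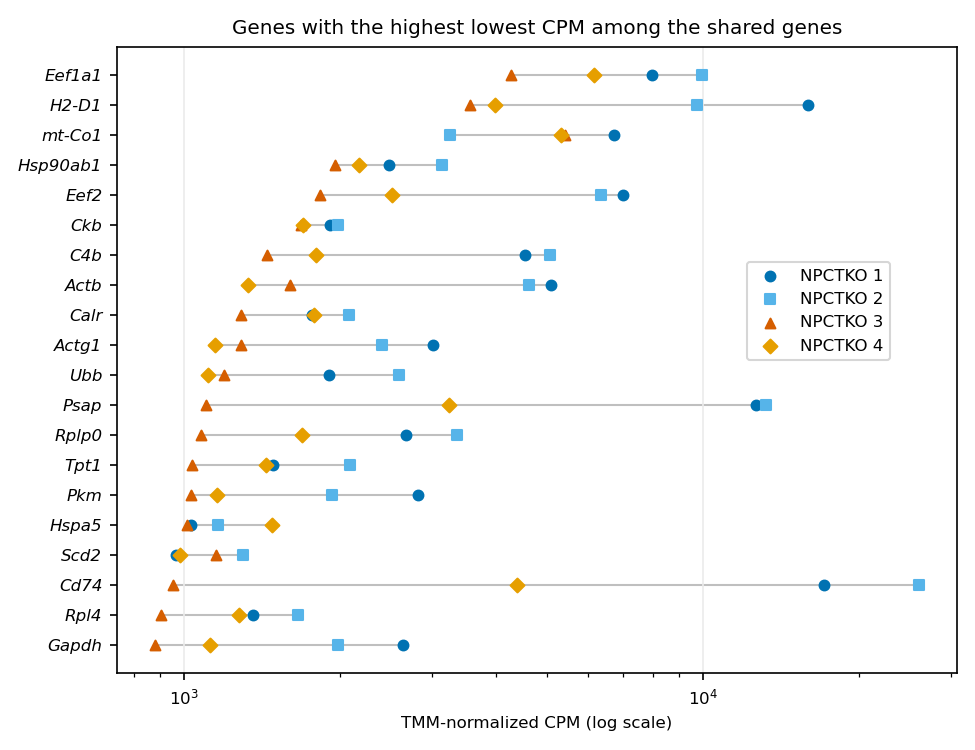
TMM-normalized CPM (log axis) of the 20 shared genes with the highest lowest value, 1 point per NPCTKO sample and a grey line from the lowest to the highest sample. *Ckb*, *Scd2* and *Hspa5* are nearly level over the 4 samples, while *Psap* and *Cd74* run over more than a factor of 10.

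A ranking by counts does not settle the level of *H2-D1*, an MHC class I heavy chain. Its counts gave 15954, 9724, 3560.4 and 3974 CPM but its FPKM values were 2.50, 1.13, 3.44 and 3.61. The class I genes *H2-K1* (3698, 2422, 589 and 1543 CPM), *H2-Q4* (1087, 1252, 607 and 613 CPM), *H2-Q6* (633, 398, 378 and 346 CPM) and *H2-Q7* (1000.3, 517, 341 and 316 CPM) were in the shared set too. They are near-identical copies of each other, so how reads were split among them is uncertain. *B2m*, the light chain that all of them need, holds no counts because another gene covers it, and was at 4936, 5198, 1929 and 2544 FPKM. *Tap1* and *Nlrc5* were in the shared set as well. *Tap1*, which pumps peptides to class I molecules, was at 1314, 1386, 413 and 319 CPM, and *Nlrc5*, the transactivator of class I genes, at 458, 557, 592 and 619 CPM with a highest over lowest of 1.35. The 5 heavy chain genes, *Tap1* and *Nlrc5* were named because they were in the shared set, so their ranks add nothing. *Psmb9* and *Psmb8*, also genes of antigen presentation, were outside it, with lowest ranks of 1076 and 4079. *B2m* could not be ranked by counts. The 21 shared genes on chromosome 17, where the class I genes lie, are 9.95% of the 211, beside 4.62% of the 10383 genes with a mean of at least 10 CPM. The start windows of the 5 class I genes hold a similar short stretch, shown here because these genes are similar copies. Each is written 5′ to 3′ on the strand of the gene, from RefSeq on GRCm38.p6, with a CCAAT box in capitals.
H2-D1: tccaggagCCAATcagcgtcgccgcggacg
H2-K1: accaagaaCCAATcagtgtcgccgcggacg
H2-Q4: accgggaaCCAATcatcgtcgccgcgggag
H2-Q6: accgggaaCCAATcagcgtcggcgcgggag
H2-Q7: acccggaaCCAATcagcgtcggcgcgggag
They lie at chr17:35263033-35263062 (plus strand), chr17:34000318-34000347 (minus strand), chr17:35379554-35379583 (plus strand), chr17:35424787-35424816 (plus strand) and chr17:35439131-35439160 (plus strand). The letters CCAAT on the strand of the gene, within 250 bases before the start, were found in 5 of 5 class I genes, in 51 of 159 (32.1%) of all shared genes with a start window and in 1877 of 8036 (23.4%) of all genes with a mean of at least 10 CPM.

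Ribosomal protein genes were the largest list within the shared set. Of 91 cytosolic ribosomal protein genes 48 were shared, as were 13 of 35 translation factors, 14 of 36 genes of the actin and tubulin cytoskeleton, 8 of 20 glycolysis genes, 8 of 31 chaperones and 5 of 37 genes of RNA binding and splicing, and 85 of the 211 genes were in none of 35 lists. Of all genes with a count 0.911% were shared, and of those with a mean of at least 10 CPM 2.03%. The ribosomal protein genes held 6.29, 6.60, 2.85 and 3.83% of all counts, in the order of the samples. *Rpl5* was the most even of the shared ones, at 711, 739.9, 425 and 506 CPM, and *Rps3* spread most, at 1789, 2010.0, 323 and 691 CPM. Each of the 48 shared ones was higher in samples 1 and 2 than in samples 3 and 4, as were 40.5% of all genes with a mean of at least 10 CPM. With the GC and length trends removed 40 of 76 ribosomal protein genes were stable, beside 55.9% of all genes. Many mRNAs of ribosomal proteins start with a run of pyrimidines through which translation is tied to growth signals. A run near the annotated start is shown for 5 of the shared ones, with the letters CTCTTTC in capitals. The rule that chose the shared genes did not use their sequence. In the order shown, the letters begin -20, 1, 0, 5 and 4 bases from the annotated start. The run of *Rpl5* thus lies upstream of that start. *Fau* encodes a ribosomal protein fused to a ubiquitin-like one.
Rpl5: tacagccaCTCTTTCtcacgtcgcttgcgt
Rpl18: gcaggccgCTCTTTCcccgcccactccggc
Rpl28: tcgtgtctCTCTTTCcgtctccggccgcca
Rps26: gccggatcCTCTTTCgagtcttggctccaa
Fau: acttcttcCTCTTTCttgactccatcttcg
These windows (GRCm38.p6, strand of the gene) lie at chr5:107900500-107900529 (plus strand), chr7:45718064-45718093 (plus strand), chr7:4792957-4792986 (plus strand), chr10:128626480-128626509 (minus strand) and chr19:6057943-6057972 (plus strand). CTCTTTC on the strand of the gene, within 50 bases of the annotated start, was found in 8 of 36 (22.2%) of the shared ribosomal protein genes with a start window, in 5 of 118 (4.24%) of the shared genes that are neither ribosomal nor class I and in 134 of 8036 (1.67%) of all genes with a mean of at least 10 CPM. The annotated start is often that of the longest model and may lie some bases from the start that is used. The letters CCGGAAG, the core of an ETS site, on either strand from 250 bases before to 50 after the start, were in 14 of 36 (38.9%), 21 of 118 (17.8%) and 1647 of 8036 (20.5%) in the same order. The GC box GGGCGG was in 118 of 159 (74.2%) of the shared genes and 5776 of 8036 (71.9%) of all genes with a mean of at least 10 CPM, nearly the same share.

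**Figure D2:**
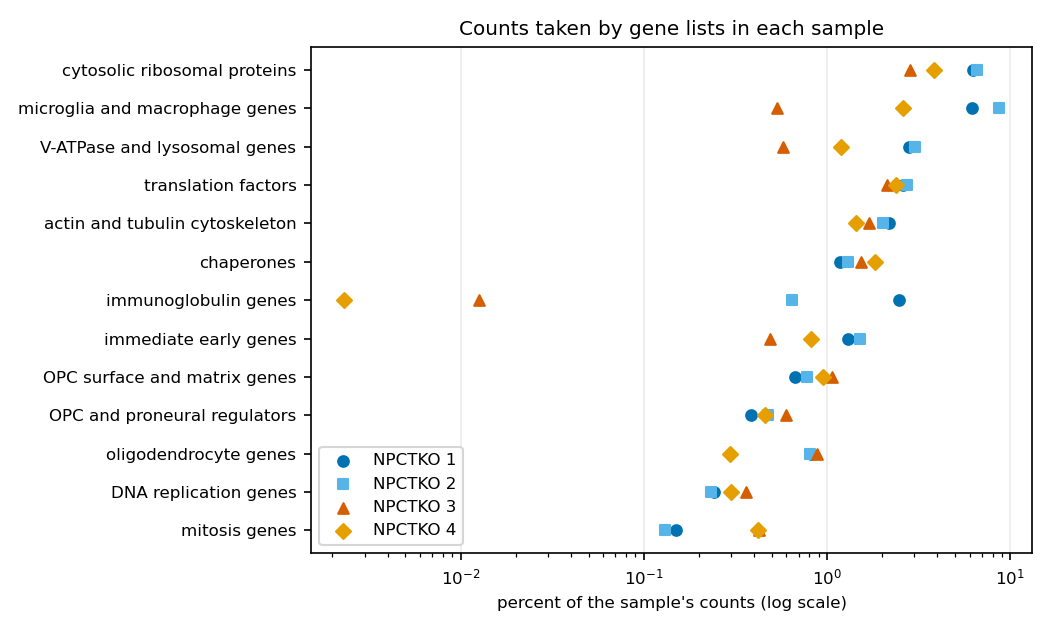
Percent of each NPCTKO sample's counts (log axis) that fell on the genes of 13 lists, 1 point per sample. Translation factors, chaperones, cytoskeleton and OPC lists lie close together in the 4 samples, while macrophage, lysosomal and above all immunoglobulin genes spread widely.

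The shared genes were also even for some of their members. A gene was called stable where the highest of the 4 values of CPM + 1 was at most 2 times the lowest, and varying where it was at least 8 times the lowest. Of the 10383 genes with a mean of at least 10 CPM, 4017 were stable (38.7%) and 951 varied (9.16%), and the median of highest over lowest was 2.33. Of the 211 shared genes, 83 were stable (39.3%), a share near that of all genes, and 7 varied (3.32%). The 7 were *Apoe*, *Cd74*, *Ctsb*, *Psap*, *Fth1*, *Junb* and *Mbp*. The most even, named after their values were seen, were *Nisch*, an integrin-binding protein, at 684, 675, 724 and 666 CPM, *Irgm1*, an interferon-induced GTPase, at 424, 473, 466 and 453 CPM, and *Sf1*, a splicing factor, at 469, 417, 414 and 402 CPM. *Ptprs*, a receptor phosphatase that binds matrix proteoglycans, was at 723, 613, 651 and 665 CPM, *Ran*, the GTPase of nuclear transport, at 491, 491, 504 and 419.7 CPM and *Stat3*, the transcription factor of IL-6 signaling, at 435, 495, 448 and 417 CPM. Each of these 6 genes was nearly level over the samples. Removing each sample's dependence on the GC content and length of transcripts raised the stable genes to 5628 of 10062 (55.9%) and lowered the varying ones to 523 (5.20%).

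OPC regulators were present in all 4 samples and few of them were level. Of 26 regulators with a mean of at least 10 CPM, 3 were in the shared set, 1 was stable and 1 varied. Of all such genes 2.03% were in the shared set, 38.7% were stable and 9.16% varied. The median highest over lowest of the regulators was 3.27. *Olig1*, on chromosome 16 of mm10 from 91269772 to 91271933, was at 1401, 2304, 776 and 975 CPM and never ranked below 69 of all genes. *Sox10*, on chromosome 15 of mm10 from 79154913 to 79164490, was at 864, 859, 568 and 338 CPM. *Olig2* lay between 268 and 548 CPM, as given above, with the highest over lowest of 2.04 just past the limit for stable. These 3 genes were higher in samples 1 and 2 than in samples 3 and 4, as were 40.5% of all genes with a mean of at least 10 CPM. The order within the pairs was not the same for each. *Sox4*, a factor of immature neural cells, was the stable one at 88.8, 119, 153 and 99.7 CPM, with 57.4% of its span covered by other genes. *Nkx2-2*, needed for OLG differentiation, was at 27.3, 36.2, 33.4 and 17.4 CPM and *Chd7*, a chromatin remodeler that works with *Sox10*, at 112, 104, 234 and 193 CPM. *Sox6* and *Tcf4*, which encode factors of the precursor state, had their higher values in samples 3 and 4, at 121, 119, 404 and 302 CPM and 58.1, 61.7, 321 and 229 CPM, whereas *Sox8* and the Notch ligand *Dll3* had them in samples 1 and 2, at 181, 265, 59.2 and 77.3 CPM and 285, 201, 50.5 and 42.2 CPM. *Nkx6-2*, a factor of myelinating OLG, varied most at 94.6, 58.4, 20.3 and 8.06 CPM. After the GC and length trends were removed, 14 of 26 regulators were stable and 0 varied, beside 55.9% and 5.20% of all genes. The start window of *Olig2* holds the letters TATAAA (in capitals), which 132 of 8036 (1.64%) of genes with a mean of at least 10 CPM and 12 of 159 (7.55%) of shared genes have within 50 bases before the start. The letters begin -8 bases from the annotated start of *Olig2* and -32 bases from that of *Vim*, a filament gene of the shared set shown beside it, where a minus sign is upstream.
Olig2: cacccagcTATAAAaaccagcggaaccccg
Vim: aacagtgtTATAAAagcagcgcccttggcg
They lie at chr16:91225534-91225563 (plus strand) and chr2:13574271-13574300 (plus strand) of GRCm38.p6, from RefSeq.

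Genes of the OPC surface and matrix included growth factor receptors, proteoglycans and glutamate receptor subunits. Of 34 measured members 9 were stable and 4 varied, beside 38.7% and 9.16% of all genes. *Pdgfra*, on chromosome 5 of mm10 from 75152292 to 75198215, the receptor that drives OPC division, was stable at 298, 427, 477 and 269.6 CPM, with a highest over lowest of 1.76 that became 2.51 once the trends with GC content and length were removed. It was outside the shared set, with a lowest rank of 614. *Cacng4*, an auxiliary subunit of AMPA receptors, was at 247, 258, 202 and 222 CPM, *Epn2*, an endocytic adaptor, at 244, 275, 211 and 238 CPM and *Chst11*, a sulfotransferase of chondroitin chains, at 136, 184, 172 and 177 CPM. These 3 were the most even members. The shared ones were the proteoglycans *Cspg4* (NG2, 779, 686, 309 and 347 CPM), *Cspg5* (579, 839, 433 and 386 CPM) and *Bcan* (brevican, 1345, 1132, 704 and 316 CPM) and the sulfatase *Sulf2* (448, 440.5, 347 and 269 CPM). All 4 were higher in samples 1 and 2 than in samples 3 and 4, without overlap of the pairs. The same held for 40.5% of all genes with a mean of at least 10 CPM. *Gria2* and *Gria3*, which encode AMPA receptor subunits, varied most upwards in samples 3 and 4, at 15.8, 26.3, 230.4 and 141 CPM and 9.39, 12, 122 and 110.2 CPM. Genes of this list without counts were read from FPKM. *Gpr17*, a receptor of committed OPC, was at 85.6, 189.9, 59.7 and 60.2 FPKM, *C1ql1*, a secreted protein of OPC, at 166, 196, 69.5 and 76.3 FPKM and *Fam181b* at 15.5, 18.1, 14.6 and 16.9 FPKM. After the trends were removed 15 of 34 members were stable and 1 varied, beside 55.9% and 5.20% of all genes. This stable share was smaller than that of the regulators, whereas before the removal it was the larger one.

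Neural stem cell genes were read in all 4 samples, and OLG genes had the largest median spread of the lineage lists. Of 31 stem cell and radial glia genes 8 were stable and 2 varied. For this list and the next ones, 38.7% stable and 9.16% varying of all genes are the background. *Msi1*, an RNA-binding protein of stem cells, was the most even at 71.3, 55.8, 62.2 and 63.7 CPM, followed by *Prom1* (11.2, 17.5, 17.9 and 14.6 CPM), which encodes the CD133 antigen, and *Notch1* (378, 314, 222 and 248 CPM), the Notch receptor. *Vim* was the shared member, at 1232, 650.3, 1359 and 1958 CPM, and *Tnc*, a matrix protein, varied most at 54.3, 34.6, 323 and 497 CPM, with 77.0% of its span covered by other genes. Its FPKM values were 19.9, 12.1, 110.2 and 165. Of 28 OLG genes 2 were stable and 7 varied, with a median highest over lowest of 5.52. The 2 stable ones were *Itpr2*, a calcium channel of the endoplasmic reticulum (68.9, 101, 89.5 and 108 CPM), and *Bcas1* (358, 423, 593 and 303 CPM), a gene of OLG that have just begun to mature. Genes of myelin were lowest in sample 4. *Mbp* was at 2441, 2942, 1555 and 337 CPM, *Mag* at 767, 532, 368 and 51.6 CPM and *Cnp* at 1129, 1184, 605 and 164 CPM. *Ptgds*, a prostaglandin synthase, varied most at 334, 417, 36.6 and 9.23 CPM. With the trends removed 1 of 27 OLG genes was stable and 5 varied, beside 55.9% and 5.20% of all genes, so these genes stayed uneven. Of 24 astrocyte genes 5 were stable, such as *Cpe* (206, 230.4, 234 and 264 CPM), *Sparc* (612, 605, 444 and 486 CPM) and *Atp1b2* (162, 135, 217 and 166 CPM), and 4 varied. *Gfap*, the filament of astrocytes, was read at 30.6, 68.3, 19.1 and 86.9 FPKM. *Apoe*, which microglia and astrocytes both make, was at 17749, 25001, 863 and 6372 CPM and moved with the macrophage genes. Of 34 neuron genes 12 had a mean of at least 10 CPM, of which 2 were stable and 3 varied. *Eno2* (72, 57, 59 and 83.5 CPM), *Syn2* (123, 92.1, 79.5 and 90.5 CPM) and *Uchl1* (227, 184, 438 and 390.0 CPM) were the most even and *Nefm*, a neurofilament, varied most at 0.768, 7.86, 27.8 and 30.3 CPM. *Slc17a7*, the vesicular glutamate transporter of cortical neurons, was at 5.97, 5.49, 0.260 and 0.470 CPM and *Neurod6*, a factor of such neurons, was at 0, 0.0695, 0.0519 and 0 CPM, under the floor in every sample.

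**Figure D3:**
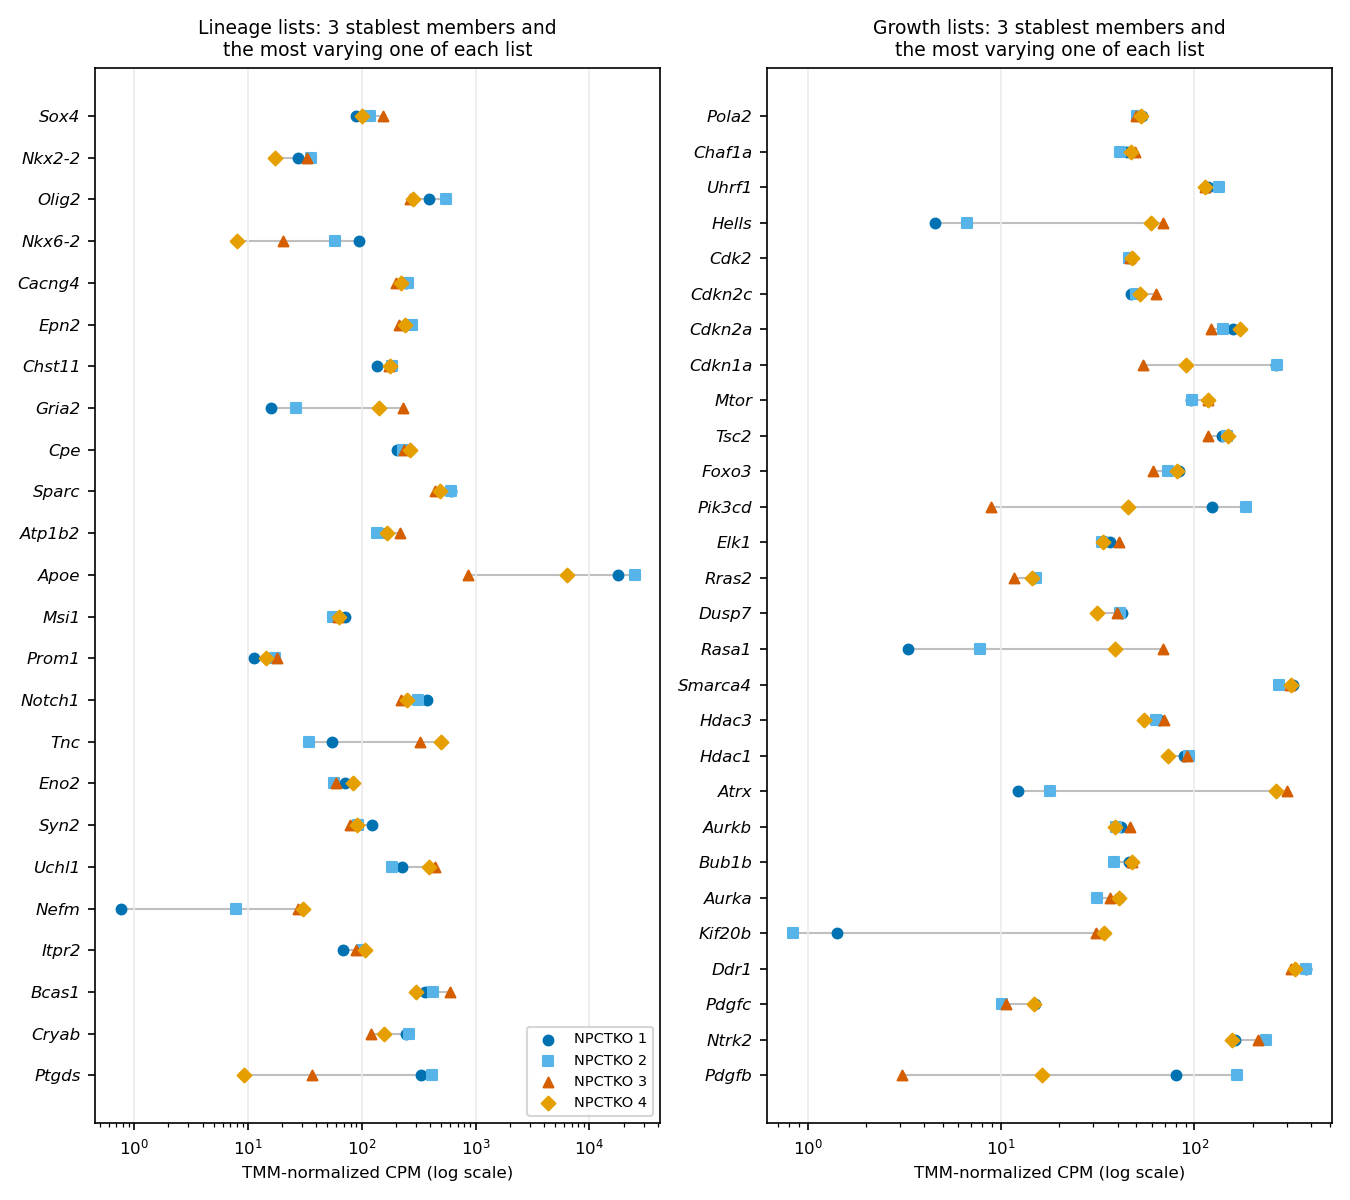
TMM-normalized CPM (log axis) of the 3 most even members and the most varying member of each lineage list (left) and growth list (right), among members with a mean of at least 10 CPM, with 1 point per NPCTKO sample. The even members keep their 4 points within a narrow band, such as *Cacng4*, *Cpe*, *Cdk2* and *Ddr1*, while *Atrx*, *Hells* and *Kif20b* split by the pairs of samples.

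Growth genes were more often stable than lineage genes. Of 259 growth genes 109 were stable (42.1%) and 26 varied (10.04%), against 26 (17.3%) and 20 (13.3%) of 150 lineage genes, beside 38.7% and 9.16% of all genes. The growth genes were therefore near the background and the lineage genes below it in stability. *Ddr1*, a collagen receptor kinase, and *Ccnd1*, cyclin D1, were the growth genes in the shared set. *Ddr1* was at 379, 379, 316 and 331 CPM (on chromosome 17 of mm10 from 35681567 to 35704621) and *Ccnd1* at 453, 423, 323 and 559 CPM (on chromosome 7 of mm10 from 144929931 to 144939925). With the GC and length trends removed, 147 of 259 growth genes were stable and 5 varied. Of 149 lineage genes, 49 were then stable and 14 varied, beside 55.9% and 5.20% of all genes.

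Genes of receptor kinases and their pathways were stable in shares at or below the 38.7% of all genes. Of 33 receptor tyrosine kinase and ligand genes 10 were stable, among them *Ddr1*, *Pdgfra*, the ligand *Pdgfc* (14.9, 10.1, 10.6 and 14.8 CPM) and the neurotrophin receptor *Ntrk2* (163, 236, 214 and 157 CPM), and 6 varied. *Pdgfa*, the ligand of *Pdgfra*, was stable too, at 83.8, 54.6, 72.8 and 82.7 CPM. *Pdgfb*, which blood vessels and macrophages also express, varied most at 80.1, 166, 3.06 and 16.2 CPM. *Egfr* was at 14.7, 12.4, 11.7 and 65.5 CPM and *Met* at 4.78, 3.82, 18.8 and 84.9 CPM, each with its highest value in sample 4. In the Ras-ERK pathway 16 of 42 genes were stable and 3 varied. *Elk1*, a target factor of ERK, was at 36.4, 33.2, 40.7 and 33.5 CPM (51.6% of its span is covered by other genes), *Rras2*, a Ras relative, at 14.8, 15.2, 11.6 and 14.5 CPM and *Dusp7*, an ERK phosphatase, at 42, 41.4, 39.6 and 31.5 CPM. The feedback inhibitor *Spry2* was stable at 106, 106, 128 and 144 CPM, and *Dusp6*, another ERK phosphatase, was just past the limit at 182, 216, 104 and 157 CPM. *Rasa1*, which like *Nf1* switches Ras off, varied most at 3.31, 7.79, 69.1 and 38.7 CPM. In the PI3K, Akt and mTOR pathway 11 of 31 genes were stable, with *Mtor* (95.6, 96.6, 117 and 118 CPM), *Tsc2* (138, 148, 118 and 149 CPM) and *Foxo3* (82.7, 73.1, 60.8 and 81.5 CPM) the most even. *Pik3cd*, the leukocyte form of PI3K, varied most at 123, 184, 8.83 and 45.6 CPM. With the trends removed, stable genes made up 26 of 31 in this list and 24 of 42 in the Ras-ERK list, beside 55.9% of all genes.

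Genes of G1 phase and DNA replication were among the most even. Of 30 genes of G1 phase and the p53 axis 14 were stable and 0 varied, beside 38.7% and 9.16% of all genes. *Cdk2*, the kinase of the entry into S phase, was at 46.4, 46, 46.4 and 47.3 CPM, with a highest over lowest of 1.03. *Cdkn2c* was at 46.7, 49.7, 63.6 and 52.2 CPM and *Cdkn2a*, the locus of p16 and p19Arf, at 159, 141, 122 and 171 CPM. *Cdkn1a*, the p53 target p21, varied most in this list at 264, 269, 54 and 90.1 CPM, and *Myc* was stable at 177, 197, 135 and 133 CPM. Of 38 DNA replication genes 24 were stable (63.2%) and 2 varied. *Pola2*, a subunit of DNA polymerase alpha, was at 53.7, 50.2, 49.97 and 53.2 CPM, *Chaf1a*, which loads histones on new DNA, at 44.5, 41.4, 49.2 and 47 CPM and *Uhrf1*, which copies DNA methylation, at 118, 135, 113 and 114 CPM. The clamp gene *Pcna* was at 103, 154, 135 and 105 CPM, and *Mcm6* of the replicative helicase at 116, 132, 121 and 139.7 CPM. Each of these 5 genes had a highest over lowest of at most 1.48. With the trends removed, 27 of 38 replication genes were stable, beside 55.9% of all genes. *Hells*, a chromatin remodeler, varied most at 4.55, 6.67, 68.5 and 59.3 CPM.

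Mitosis genes were split. Of 48 genes 19 were stable (39.6%) and 10 varied (20.8%). *Aurkb*, a kinase of chromosome segregation, was at 41.9, 39.4, 46.4 and 38.9 CPM, *Bub1b*, a kinase of the spindle checkpoint, at 45.7, 38.3, 47.5 and 47.7 CPM and *Aurka*, a spindle kinase, at 40.6, 31.5, 36.5 and 40.6 CPM. These genes were level over the 4 samples. *Mki67*, the source of the Ki67 antigen, was at 12.9, 15.2, 188 and 214 CPM, *Cenpe*, a kinetochore motor, at 8.62, 5.70, 65.5 and 93.1 CPM and *Kif20b*, a kinesin, at 1.42, 0.834, 30.9 and 33.9 CPM. Each of the 10 varying mitosis genes was higher in samples 3 and 4 than in samples 1 and 2, beside 42% of all varying genes. Their transcripts had a median length of 6682 bases and a median GC content of 40.6%, beside 2842 bases and 51% for the stable ones. With the trends removed 0 of 48 mitosis genes varied and 15 were stable, beside 5.20% and 55.9% of all genes. The median of highest over lowest in the list was then 2.31, and *Mki67* still had 6.88. Of 39 chromatin genes 17 were stable (43.6%) and 3 varied (7.69%), shares near the 38.7% and 9.16% of all genes. *Smarca4*, the motor of the BAF complex, was at 323, 272, 313 and 316 CPM, *Hdac3* at 65.5, 63.3, 69.8 and 55 CPM and *Hdac1* at 88.8, 94.1, 92 and 72.6 CPM, whereas *Atrx*, which keeps heterochromatin silent, was at 12.2, 18, 299.7 and 265 CPM.

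**Figure D4:**
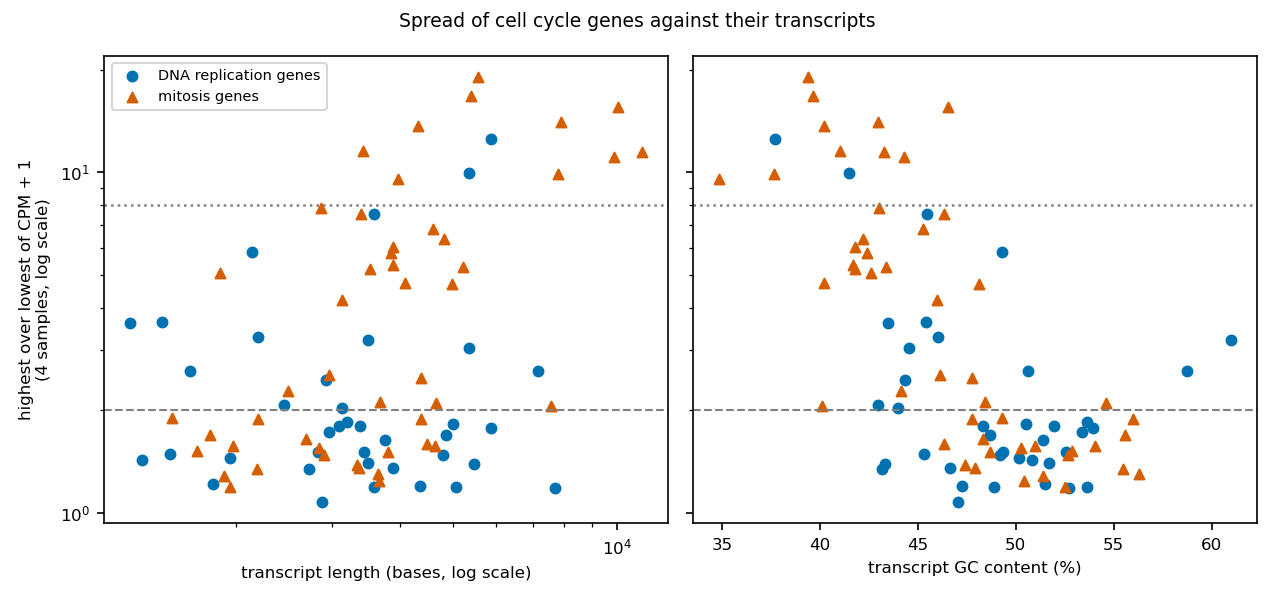
Highest over lowest of CPM + 1 over the 4 NPCTKO samples (log axis) for genes of DNA replication (circles) and mitosis (triangles) with a mean of at least 10 CPM, against transcript length (left, log axis) and transcript GC content (right). Dashed and dotted lines mark the limits of 2 for stable and 8 for varying. The varying genes lie at GC contents below 47% and most stable ones above it.

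In CPM, larger shares of proteasome, chaperone and hypoxia response genes than of all genes (38.7%) were stable. The shares of immediate early and interferon response genes were smaller. Of 36 proteasome subunits 22 were stable (61.1%), as were 18 of 31 chaperones (58.1%), 34 of 75 nuclear subunits of the respiratory chain (45.3%) and 9 of 17 hypoxia response genes (52.9%). With the GC and length trends removed, 25 of 36, 21 of 31, 51 of 74 and 8 of 17 were stable, in this order, beside 55.9% of all genes. The hypoxia response genes then fell below the share of all genes. *Psmb2*, a catalytic proteasome subunit, was at 167, 164, 158 and 147 CPM. *Pdia6*, a disulfide isomerase, was at 541, 539, 570.4 and 489.5 CPM. *Vegfa*, a hypoxia target that acts on EC, was not among the stable genes. It was at 407, 336, 177 and 353 CPM, with a highest over lowest of 2.29. Of 26 immediate early genes 4 were stable and 6 varied. *Jun* (1709, 1677, 713 and 1189 CPM), *Fos* (1224, 1672, 528 and 699 CPM), *Egr1* (1446, 1507, 582 and 829.7 CPM) and *Junb* (2241, 2886, 278 and 672 CPM) were in the shared set. Each was higher in samples 1 and 2 than in samples 3 and 4, as were 40.5% of all genes with a mean of at least 10 CPM. Enzymatic dissociation is known to raise such genes, and its part here was not tested. Of 25 interferon response genes 4 were stable, and *Irf7*, a factor of leukocytes too, varied most at 750.1, 471, 16.4 and 98.8 CPM.

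**Figure D5:**
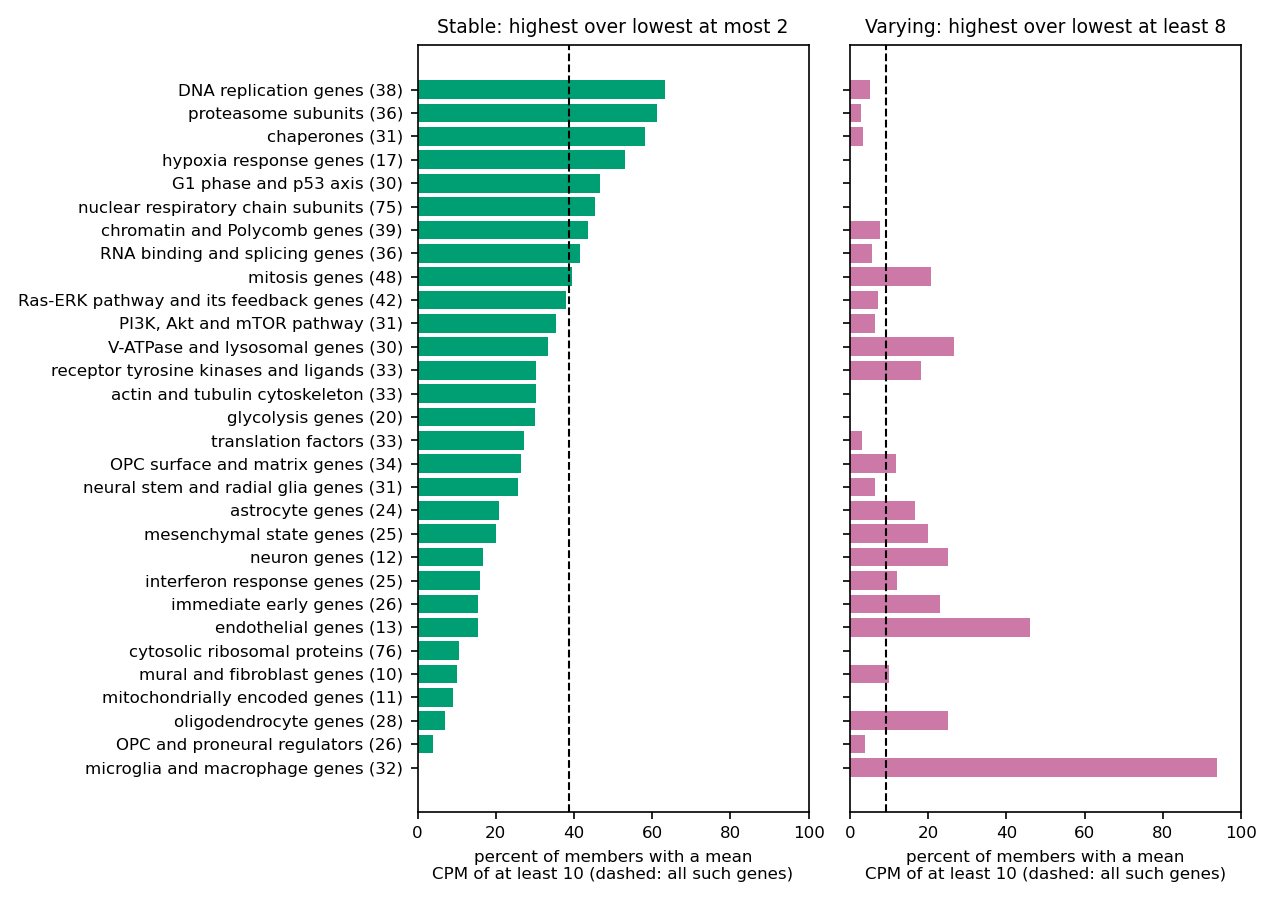
Percent of members with a mean of at least 10 CPM that were stable (left) or varying (right) over the 4 NPCTKO samples, for each list with 10 or more such members, with their number in parentheses and a dashed line at the share of all such genes, 38.7% and 9.16%. DNA replication genes lead the stable side with 63.2%, and microglia and macrophage genes the varying side with 93.8%.

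The genes that varied most were immunoglobulin genes. Of the 20 genes with the largest SD of log2(CPM + 1), 17 were immunoglobulin genes, and *Jchain* and *Mzb1*, of plasma cells, stood among the rest. *Igha*, the constant region of IgA, was at 15564, 2766, 19.3 and 4.94 CPM, *Ighg1* at 3902, 1041, 21 and 1.53 CPM and *Jchain*, which joins IgA and IgM, at 1182, 309, 9.19 and 0.647 CPM. Immunoglobulin genes held 2.48, 0.641, 0.0126 and 0.00231% of all counts. Of 393 such genes 185 had no counts, among them *Igkc* and *Iglc1*, which other genes cover entirely. These shares may therefore be too low. The other genes among the 20 were *Ighg2b* and *Ighg2c*, of heavy chain constant regions, and the variable segments *Ighv1-7*, *Ighv1-64*, *Ighv5-17*, *Igkv4-57-1*, *Igkv4-70*, *Igkv5-39*, *Igkv5-48*, *Igkv6-23*, *Igkv6-25*, *Igkv3-3*, *Igkv4-79*, *Igkv4-91* and *Igkv6-15*. All immunoglobulin genes together were lower in sample 2 than in sample 1, but the last 4 of these segments were higher in sample 2. *Igkv3-3*, for example, was at 0, 107, 0 and 0 CPM and *Igkv4-79* at 5.79, 158, 0.0519 and 0 CPM. All 13 variable segments were at most 4.00 CPM in samples 3 and 4. The segments lie in families of similar copies, among which reads may be split. The last of the 20, *Gm8730*, a processed pseudogene, was at 309, 0.139, 38.7 and 58.7 CPM.

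Most microglia and macrophage genes varied too. Of 32 with a mean of at least 10 CPM 30 varied and 0 were stable, beside 9.16% and 38.7% of all genes. Their median highest over lowest was 25.7. They took 6.20, 8.70, 0.530 and 2.59% of the counts. *Tmem119*, a microglial surface protein, was at 566, 713, 6.70 and 47.9 CPM, *Csf1r*, the receptor on which microglia depend, at 1504, 2022, 38.6 and 273 CPM and *Cd14*, a receptor for bacterial lipid, at 669, 623, 59.9 and 214 CPM. All 3 followed the order 2 or 1, then 4, then 3. *Gpnmb*, which glial precursors also express, was the most even member of the list and in the shared set, at 642, 999.9, 677 and 1492 CPM. Genes of other cells and immunoglobulin genes were 93 of the 951 varying genes.

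Most varying genes followed the pairs of samples. Of the 951, 508 (53.4%) were higher in both of samples 1 and 2 than in both of samples 3 and 4, and 399 (42%) the other way, beside 40.5% and 38.3% of all 10383 genes. Without immunoglobulin genes, transcripts higher in samples 1 and 2 had a median length of 2734 bases and a GC content of 53.6%, and those higher in samples 3 and 4 had 5860 bases and 41.5%. The genes of this kind named next were chosen after their values were seen. *Igf2bp2*, an RNA-binding protein of fetal tissue, was at 2.01, 3.41, 161 and 60.8 CPM, and *Col4a6*, a basement membrane collagen, at 12, 5.21, 73.2 and 337 CPM. Both were higher in samples 3 and 4, and their FPKM values, 0.468, 0.731, 34.4 and 12.1 and 2.27, 0.942, 11.8 and 61.9, were in the same order of pairs. *Snhg11*, a noncoding host of small nucleolar RNA, was at 0.709, 1.39, 20.1 and 200.4 CPM.

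Within a pair fewer genes varied, and a highest over lowest of 2 values is smaller than one of 4 by construction. Between samples 1 and 2, 51 genes differed by at least 8 times, and between samples 3 and 4, 40 did. The 438 leading genes shared by samples 1 and 2 and the 368 shared by samples 3 and 4 had the 211 genes in common, which is 48.2% and 57.3% of them. The common biological coefficient of variation of edgeR over the 4 samples was 0.565, as a measure of the spread beyond counting error around their mean. Whether the pairs differ by animal, by host line, by reporter or by how the samples were handled cannot be told apart.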

How the data were processed

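RNA of sorted NPCTKO tumor cells was sequenced from a non-directional poly-A library in paired 150-base reads. Per the submitters' processing notes and the study's methods, the authors trimmed reads with Cutadapt (version 1.16 in the submitters' processing notes), aligned them to mm10 with TopHat 2.1.1 and computed FPKM with Cufflinks 2.2.1. The deposited count table holds unnormalized counts per gene, for which the sources used here name no counting tool, and the deposited FPKM table holds the authors' values per transcript length and library size. Since strand was not kept, overlapping and antisense genes cannot be told apart.

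Counts were scaled to CPM with TMM factors from the 4 samples (edgeR 4.0.16 in R 4.3.3), and their common spread was estimated with an intercept-only fit. A gene entered the counts of stable and varying genes at a mean of at least 10 CPM, and ratios were taken on CPM + 1. Lowess fits removed each sample's dependence on GC content and length of the transcript (span 0.3, statsmodels 0.14.6). The estimate of spread and the limits for stable and varying were also run on simulated counts. These had no pairs of samples and, for most genes, a smaller spread than the one fitted here. They held no trend with GC content or length, so they do not bear on its removal. With 1 group, no p-value was computed. Transcript length and GC content came from the GENCODE annotation of GRCm38, and RefSeq start windows (GRCm38.p6) were found for 159 of the 211 shared genes.

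The members and the gene lists were chosen with earlier results of these data known. Named were the 20 shared genes with the highest lowest CPM, the 3 most even and the most varying member of each lineage and growth list and other members of these lists, the 20 genes with the largest SD, the genes the study names for its cells, and *Trp53* and *Nf1*. Others, among them the class I genes, the most even shared genes, members of other lists and the motifs, were chosen after their values were seen. Some genes are not reported here. Alternatives were rankings by FPKM, DESeq2 1.42.0 size factors, other limits, no filter, removal of the trends and leaving out each sample, and others added after seeing the data.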

Additional observations from a re-analysis of the deposited data

Results flagged for a closer look

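Of 232 values checked, 15 had 1 sample far from the other 3. Its gap to the nearest, divided by the range of the 4, passed Dixon's critical value for 4 samples at 95%. Chance does this for about 1 in 20 groups of values that were not chosen for their spread. Many of these values were chosen for it, such as the 20 genes with the largest SD, so the 15 cannot be set against that rate. *Egfr* was highest in sample 4 at 65.5 CPM, and *Snhg11* was too, at 200.4 CPM. *Pdpn* was highest in sample 3 at 19.8 CPM. Of the immunoglobulin segments, sample 1 stood apart with 1659.5 CPM of *Igkv6-25*, 1073 CPM of *Ighv1-7*, 609.9 CPM of *Igkv4-57-1*, 440.1 CPM of *Ighv1-64*, 347 CPM of *Ighv5-17* and 235 CPM of *Igkv4-70*, and sample 2 with 158 CPM of *Igkv4-79* and 107 CPM of *Igkv3-3*. *Ran* was lowest in sample 4 at 419.7 CPM, a gap of small size in a gene called stable. The summed OLG genes were lowest in sample 4, at 0.296% of counts, the summed erythroid genes also in sample 4, at 0.00475%, and the summed mural and fibroblast genes in sample 2, at 0.0329%.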

How the results depend on the processing

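No paired analysis was possible because the 4 samples form 1 group. The number of shared genes was 97 with the top 250 and 454 with the top 1000, and 438 in samples 1 and 2 alone and 368 in samples 3 and 4 alone, and it lay between 217 and 289 when each sample was left out. The mean share taken by the shared genes was 45.7% by FPKM, with another set and another total, and 20.0 to 29.9% without 1 sample, highest without sample 3. Stable genes numbered 39670 with no filter on low values, where genes at 0 count as stable, 1599 at a limit of 1.5, 9366 and 8991 in the pairs 1 and 2 and 3 and 4 alone, and 4599 to 5478 without 1 sample. Varying genes numbered 458 by FPKM, 523 with the GC and length trends removed, 342 at a limit of 16, 51 and 40 in the 2 pairs alone, and 377 to 875 without 1 sample, with 377 without sample 3. By construction, fewer samples lower the ratio of highest to lowest. The common spread, 0.565, was 0.669 without a filter on low counts, 0.404 as the median over genes from DESeq2 dispersions, and 0.523 to 0.602 without 1 sample.

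Of lineage genes, 12 to 18 were shared, 36 to 52 stable and 12 to 18 varying without 1 sample, with 52 and 12 without sample 3, 36 and 13 without sample 1 and 50 and 14 without sample 4, and 13 varied by FPKM. Of growth genes, 3 to 5 were shared, 122 to 143 stable and 20 to 24 varying without 1 sample, with 5 shared without sample 3, and 1 was shared and 6 varied by FPKM. The causes of the differences between CPM and FPKM were not tested. Of 176 named genes with a mean of at least 10 CPM, 173 kept their class (stable, varying or between) with DESeq2 size factors, 153 with library size alone, 175 with a pseudocount of 0.25 and 123 with the trends removed, and 122 of 140 did by FPKM. The settings with pairs alone, and those without genes that other genes cover by over 10% or without other cells, were chosen after seeing the data. Depth limits genes near the floor only, while the spread between 4 samples limits the rest.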

Other observations

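Genes of a mesenchymal state, which some GBM cells take on, were uneven. Of 25 with a mean of at least 10 CPM 5 were stable and 5 varied, beside 38.7% and 9.16% of all genes. The list took 0.554, 0.417, 0.433 and 0.604% of all counts in the samples, from 1 to 4. Besides *Stat3*, *Runx1*, a transcription factor, was among the most even at 70.3, 66.4, 39.1 and 51.9 CPM, and *Cebpb*, a master factor of this state that macrophages express as well, varied most at 314, 337, 14.9 and 58.6 CPM. *S100a6*, a calcium-binding protein, was at 41.6, 35.2, 28.8 and 31.8 CPM. Lysosomal genes took 2.79, 3.03, 0.576 and 1.19% of the counts, with 10 of 30 stable and 8 varying. The most even were subunits of the proton pump, such as *Atp6v1a* (82.6, 103, 86.1 and 101 CPM), whereas the cathepsin *Ctsz*, abundant in macrophages, was at 2236, 2411, 90.2 and 444 CPM.

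Genes of the remaining lists differed in the same terms. Stable were 15 of 36 genes of RNA binding and splicing, 9 of 33 translation factors, 10 of 33 cytoskeleton genes, 6 of 20 glycolysis genes, 1 of 11 mitochondrially encoded genes and 8 of 76 ribosomal protein genes. Of all genes 38.7% were stable. *Nono*, a splicing regulator, was at 323, 351, 326 and 345 CPM, *Eif4a1*, an RNA helicase of translation start, at 966, 869, 765 and 614 CPM and *Pgk1*, a glycolytic kinase, at 635, 448, 404 and 416 CPM. Of the lists for other cells, 13 of 23 EC genes, 10 of 24 mural and fibroblast genes, 5 of 16 granulocyte and monocyte genes, 7 of 15 B and plasma cell genes and 3 of 19 T cell genes had a mean of at least 10 CPM, as did 1 gene each for erythroid and ependymal cells. *Foxj1*, a factor of ciliated cells, was at 11.6, 14.7, 5.04 and 14.5 CPM, and *Kdr*, a VEGF receptor of EC, was stable at 13.1, 19.5, 11.3 and 21.6 CPM. *Aif1*, a macrophage gene, was at 173, 278, 7.12 and 40.8 CPM and *Tek*, an angiopoietin receptor of EC, at 1.48, 4.10, 0.935 and 5.65 CPM. The OLG genes *Klk6* and *Cldn11* were at 48.8, 57.1, 6.80 and 13.3 CPM and 689.9, 405, 772 and 141 CPM.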
